A study of Mus musculus with 3 samples.

Results

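Oligodendrocyte sub-cluster 4 was a set of 53 nuclei among 2165 oligodendrocyte nuclei and 14662 nuclei in all from the lumbar spinal cord of 12 mice. Its members were the nuclei that the authors had annotated as oligodendrocyte and placed in the smallest of 5 oligodendrocyte sub-clusters. Each mouse was 90 days old, and the groups were 3 female and 3 male SOD1G93A mice (B6.Cg-Tg(SOD1*G93A)1Gur/J), which carry a mutant human SOD1 transgene in all tissues and model amyotrophic lateral sclerosis, and 3 female and 3 male wild-type (WT) C57BL/6J littermates. One mouse of each sex and genotype was hashtagged into each of 3 pools, called A, B and C, and UMIs, which are counted transcript molecules, were measured by single-nucleus RNA sequencing. A mouse gave between 1 and 10 nuclei of the sub-cluster, so every value per mouse rested on 5971 to 148920 UMIs and a gene with few UMIs could be listed at 0 in a mouse by sampling alone.

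Oligodendrocytes wrap axons in myelin. They arise from oligodendrocyte progenitor cells (OPC), which carry the PDGF receptor alpha (Pdgfra) and the proteoglycan NG2 (Cspg4), lose these on commitment, pass through a short stage marked by genes such as Bmp4, Gpr17, Neu4, Tcf7l2 and Bcas1, and then switch on the genes of compact myelin and later those of the mature cell. In the adult spinal cord few oligodendrocytes are being formed at any time, and each stage can only be read in nuclei from the balance of these gene groups.

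Nuclei of sub-cluster 4 held between 3510 and 65474 UMIs (median 9023). The medians were 4454, 7326, 5075.5 and 10569 UMIs in sub-clusters 0, 1, 2 and 3 and 10016 in OPC. In all 12 mice the median depth of sub-cluster 4 was above that of the other oligodendrocytes of the mouse, by 1.02 to 3.12 times, and the part of depth in the results was not tested. Across the whole series 15 barcode sequences occurred in more than 1 pool, of which 1 belonged to a nucleus of sub-cluster 4.

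The 15 genes that stood highest in sub-cluster 4 were led by 9630013A20Rik, annotated as an antisense non-coding gene (chr14:84458639-84476424, GRCm38, minus strand), and by Tcf7l2, a transcription factor of the WNT pathway that is needed for oligodendrocyte differentiation (chr19:55741820-55933654, plus strand). Fyn, a SRC-family kinase that acts in myelination (chr10:39368855-39565381, plus strand), was among them, and Prr5l, a partner of the mTORC2 complex (chr2:101714285-101883027, minus strand), was among the 15 lowest. The start regions of these 4 genes are shown because their transcripts separated the sub-cluster. The genes, the start shown where a gene has several, and both motifs were chosen after the values and the sequences had been seen, so the windows do not represent the other genes. They were taken from RefSeq (GRCm38.p6), run 5′ to 3′ on the gene's strand and cover 250 bases before and 50 after a start. Capitals mark matches to CTTTGAA or to CTTTGAT or to CTTTGTA or to CTTTGTT, the letters that TCF and LEF factors are known to bind, and to ACAATG, a core of SOX sites, each searched on both strands.
9630013A20Rik, chr14:84476375-84476674: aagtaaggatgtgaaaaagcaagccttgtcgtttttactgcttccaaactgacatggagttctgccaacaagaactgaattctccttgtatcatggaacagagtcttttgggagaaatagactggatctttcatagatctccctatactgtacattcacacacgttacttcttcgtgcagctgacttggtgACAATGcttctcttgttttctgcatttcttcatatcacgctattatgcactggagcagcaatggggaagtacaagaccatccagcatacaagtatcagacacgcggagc
Tcf7l2, downstream start, chr19:55895071-55895370: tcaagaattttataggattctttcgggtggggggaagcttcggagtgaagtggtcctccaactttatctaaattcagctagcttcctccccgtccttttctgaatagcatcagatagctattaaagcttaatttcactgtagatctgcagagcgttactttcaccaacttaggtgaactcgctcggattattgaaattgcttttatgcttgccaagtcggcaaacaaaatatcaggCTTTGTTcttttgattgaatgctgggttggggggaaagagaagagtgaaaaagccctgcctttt
Fyn, chr10:39369549-39369848: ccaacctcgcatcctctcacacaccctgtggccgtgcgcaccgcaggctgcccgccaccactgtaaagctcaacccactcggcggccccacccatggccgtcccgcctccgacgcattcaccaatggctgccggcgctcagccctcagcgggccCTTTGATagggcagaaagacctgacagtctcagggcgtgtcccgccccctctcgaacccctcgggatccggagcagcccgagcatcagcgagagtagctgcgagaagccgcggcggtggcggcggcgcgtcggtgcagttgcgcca
Prr5l, upstream start, chr2:101882978-101883277: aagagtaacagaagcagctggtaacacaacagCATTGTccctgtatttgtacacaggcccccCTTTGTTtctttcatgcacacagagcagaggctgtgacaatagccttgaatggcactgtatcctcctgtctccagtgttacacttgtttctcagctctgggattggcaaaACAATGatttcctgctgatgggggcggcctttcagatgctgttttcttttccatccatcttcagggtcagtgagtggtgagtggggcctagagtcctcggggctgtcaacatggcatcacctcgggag

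Windows were found for all 15 of the highest genes (21 windows) and for 11 of the 15 lowest (15 windows). A TCF/LEF form was present in 2 of the 21 windows of the highest genes (9.52%), in 5 of the 15 windows of the lowest (33.3%) and in 16.9% of all 32851 windows of this length. The SOX core was present in 3 (14.3%) and 6 (40.0%) of them and in 12.6% of all windows. A match describes letters and not a bound site.

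Levels were compared as the within-mouse difference in log2(CPM + 10), where CPM is UMIs per 1000000 UMIs of the summed nuclei of a class in a mouse, averaged over the 12 mice with the SD over mice. The genes had entered the clustering, so these differences describe the sub-cluster and were not tested. A gene was compared if the 2 classes together held at least 20 UMIs, so it could enter through sub-cluster 4 alone. Of 14733 such genes, 301 (2.04%) stood more than 1 higher in sub-cluster 4 than in sub-clusters 0 to 3. Another 1649 (11.2%) stood more than 1 lower. Against OPC, 292 of 11292 genes (2.59%) stood higher and 1572 (13.9%) lower. The median of all genes was -0.34 against sub-clusters 0 to 3 and -0.38 against OPC on this scale, where a mouse with 1 nucleus is at 0 for many genes. With UMIs pooled over mice, the medians were -0.08 and -0.11, and the counts were 471 higher and 589 lower against sub-clusters 0 to 3 and 391 higher and 580 lower against OPC. Pooled counts are therefore given beside those over mice for the main gene groups.

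9630013A20Rik had 3303 UMIs in sub-cluster 4, at 1 UMI or more in 53 of 53 nuclei. Its level lay between 672 and 16245 CPM over the mice (median 4655), against 11.8 to 119 CPM in sub-clusters 0 to 3 and 0 to 394 CPM in OPC. All 12 mice were higher in sub-cluster 4 than any mouse in the other oligodendrocytes. The difference was 6.5 ± 1.22 on the log2 scale against sub-clusters 0 to 3 and 5.92 against OPC, also higher in 12 of 12 mice. Reads of this gene and of Pcdh17, a protocadherin on the opposite strand, could be told apart only by a count that used strand. Pcdh17 itself was at 1246 ± 674 CPM (SD, n = 12) in sub-cluster 4 and 101 ± 24.3 CPM in sub-clusters 0 to 3.

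Tcf7l2 had 1478 UMIs in 52 of the 53 nuclei. It lay between 623 and 4488 CPM over mice in sub-cluster 4 (median 2258), between 31.5 and 85.3 CPM in sub-clusters 0 to 3 and between 27.4 and 274 CPM in OPC. The mice of the 3 classes did not overlap between sub-cluster 4 and either of the others, and the difference was 4.93 ± 0.91 against sub-clusters 0 to 3 and 4.14 against OPC. Itpr2, an endoplasmic reticulum calcium channel, lay between 591 and 2082 CPM against 7.88 to 55.1 CPM in sub-clusters 0 to 3 and 118 to 352 CPM in OPC, again without overlap. Among sub-clusters 0 to 3 it was highest in sub-cluster 3, at 129 ± 69.2 CPM (SD, n = 12), against 12.7 to 32.0 CPM in sub-clusters 0 to 2.

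A further 6 of the 15 genes were higher in 12 of 12 mice. They were Frmd4a (4.53 ± 1.18), a scaffold of cell polarity, D430041D05Rik (4.36 ± 1.15), Tmem163 (4.29 ± 0.73), a zinc transporter, Slc1a1 (4.02 ± 0.73), a glutamate and cysteine transporter, Tns3 (3.80 ± 0.60), a focal adhesion protein of the tensin family, and Fyn (3.52 ± 0.61). The remaining 6 were higher in 11 of 12 mice. They were Tnr (4.83 ± 2.94), an extracellular matrix glycoprotein, Ust (4.59 ± 2.38), a uronyl sulfotransferase acting on chondroitin and dermatan sulfate, Ppfibp1 (4.38 ± 1.88), a liprin, Nckap5 (3.84 ± 1.79), Cnksr3 (3.63 ± 1.77) and the small GTPase Rras2 (3.54 ± 2.31). In each of these 6 the remaining mouse was lower than its own sub-clusters 0 to 3.

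**Figure D1:**
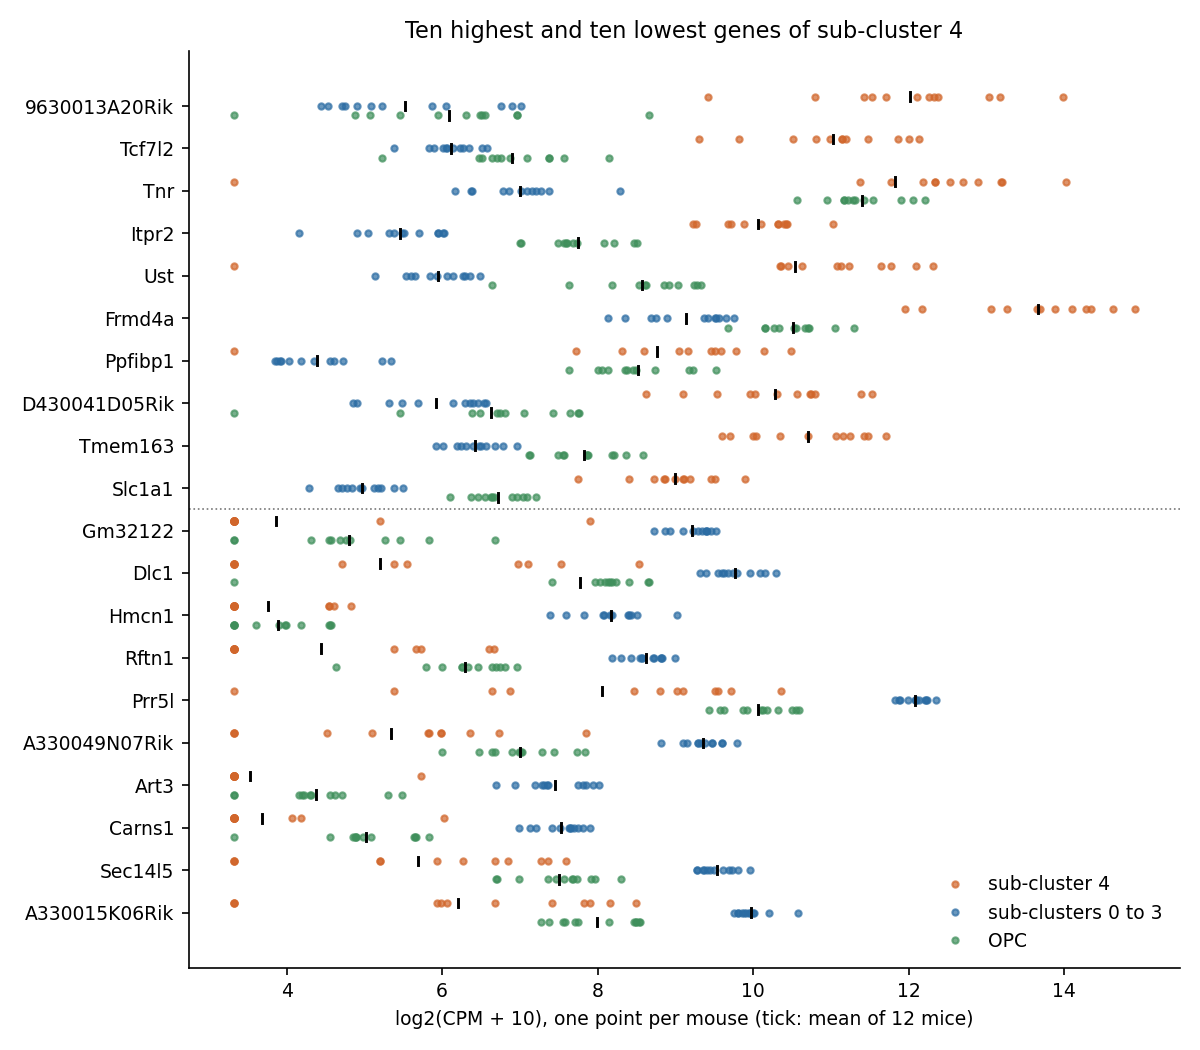
Level of the 10 highest and the 10 lowest genes of sub-cluster 4 against sub-clusters 0 to 3, as log2(CPM + 10) on the horizontal axis, with 1 point per mouse (n = 12) for each class and a black tick at the mean. For 9630013A20Rik, Tcf7l2 and Itpr2 every point of sub-cluster 4 lies to the right of both other classes, and for the lower genes its points lie to the left of sub-clusters 0 to 3, many at 0 CPM.

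The list of genes of committed and newly formed oligodendrocytes held 27 genes, of which 26 had enough UMIs against sub-clusters 0 to 3. More than 1 higher in sub-cluster 4 were 21 of the 26 and more than 1 lower was 1 (Lama2, a laminin chain, at -1.14, or -0.63 with UMIs pooled), with a median of 2.38 over the list, beside 2.04% higher, 11.2% lower and a median of -0.34 over all genes. With UMIs pooled the counts were 21 and 0 and the median was 2.73. Against OPC, 20 of 26 were higher and 0 lower, with a median of 2.46 (21, 0 and 2.27 with UMIs pooled). The list was chosen with earlier results of these data known, and the sub-cluster had been made from the same genes. Of the 21, at least Bmp4 passed the UMI limit only through sub-cluster 4, where it was high.

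Members of this list differed in how widely they were shared. Genes of the brief committed stage were sparse. Bmp4, a secreted ligand of the BMP family, had 34 UMIs in 12 nuclei of sub-cluster 4, 3 UMIs in 2112 nuclei of sub-clusters 0 to 3 and 27 UMIs in 181 OPC nuclei. Gpr17, a G protein-coupled receptor that holds differentiation back, had 45 UMIs in 20 nuclei, and Neu4, a sialidase, 41 UMIs in 15 nuclei. Bmp4 entered the comparison with sub-clusters 0 to 3 only through the class where it was high. Neu4 was seen in 3, 3, 3 and 1 nuclei of sub-clusters 0, 1, 2 and 3, so the same may hold for it. Gpr17 was seen in 37.7% of sub-cluster 4 and 31.5% of OPC nuclei (17.0% and 7.87% after thinning to 2000 UMIs). Neu4 was seen in 28.3% and 53.0% (13.2% and 14.6% after thinning). The difference from OPC was 1.81 for Bmp4, 0.91 for Gpr17 and -0.30 for Neu4. Each of Bmp4, Gpr17 and Neu4 was higher than in every mouse of sub-clusters 0 to 3 in 9 of the 12 mice and was listed at 0 in the other 3. Bcas1, a marker of early myelinating cells, was seen in all 53 nuclei at 2087 ± 1225 CPM (SD, n = 12), against 461 CPM in sub-clusters 0 to 3 and 474 CPM in OPC. It was also seen in 77.6% to 90.2% of nuclei in sub-clusters 0 to 3 and in 86.7% of OPC nuclei. After thinning these were 46.6% to 67.2% and 55.1%, against 86.8% in sub-cluster 4. The lowest mouse was at 167 CPM in sub-cluster 4 and at 361 CPM in sub-clusters 0 to 3. Enpp6, a choline phosphodiesterase of newly formed cells, was at 517 ± 253 CPM against 311 CPM in sub-clusters 0 to 3 (0.30 ± 1.74). It was above the highest mouse of sub-clusters 0 to 3 in 8 of 12 mice and listed at 0 in 1, and stood 2.61 higher than in OPC. Casr, which encodes a calcium-sensing receptor, had 5 UMIs in 2 nuclei.

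OPC genes fell into separate kinds. Pdgfra, the receptor that defines OPC, had 8 UMIs in 3 nuclei of sub-cluster 4 and 403 UMIs in the OPC nuclei. Its level was 0 in 9 of the 12 mice of sub-cluster 4 and between 50.5 and 183 CPM in OPC. Cspg4 (10 UMIs), Cspg5 (5 UMIs) and Megf11 (13 UMIs) were as sparse, and the differences from OPC were -3.16 for Pdgfra, -2.0 for Cspg4, -3.11 for Cspg5 and -4.28 for Megf11. Other OPC genes had means above that of OPC, namely Tnr (6387 ± 4195 CPM against 2834 CPM in OPC), the transcription factor Sox6 (1428 ± 1016 against 870 CPM) and Luzp2 (2291 ± 1201 against 1355 CPM), while Vcan, a matrix proteoglycan, lay between the classes (511 CPM in sub-cluster 4, 22.9 CPM in sub-clusters 0 to 3 and 806 CPM in OPC). Of the 14 genes, 7 were more than 1 higher and 2 lower than in sub-clusters 0 to 3 (8 and 0 with UMIs pooled), beside 2.04% and 11.2% over all genes. Against OPC, 0 were higher and 10 lower (1 and 8 with UMIs pooled), beside 2.59% and 13.9% over all genes.

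The 10 lowest genes against OPC were Megf11, Lhfpl3 (-3.25), Pcdh15 (-3.23), Mmp16 (-3.21), Cntn5 (-3.42), Sorcs3 (-3.22), Kcnip3 (-3.55), Kcnh8 (-3.24), Fam19a1 (-3.37) and Fam19a2 (-3.31). OPC nuclei carried more neuronal RNA than sub-cluster 4 (mean 1.56 ± 0.42% of UMIs on the neuron list per mouse against 0.65 ± 0.49%, n = 12), and the part of this in the OPC comparison was not tested. The 10 highest against OPC held 9630013A20Rik, Cnksr3 (4.58), Tcf7l2, Rras2 (3.76), D430041D05Rik (3.65), 9530059O14Rik (3.42), the adhesion molecule neurofascin (Nfasc, 3.17), Frmd4a (3.15), the kinesin Kif19a (3.13) and the filament protein Bfsp2 (3.08).

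Myelin genes differed among themselves. Mbp, the myelin basic protein gene that marks the lineage, lay between 1536 and 8039 CPM over mice in sub-cluster 4 (median 2977) and between 2214 and 3163 CPM in sub-clusters 0 to 3 (median 2768), so the classes overlapped. Mag, a myelin-associated glycoprotein, differed by 0.03 ± 1.02. Against OPC, Mbp stood 1.94 and Mag 1.71 higher, each in 12 of 12 mice. Mog, a surface protein of mature myelin, lay between 0 and 414 CPM against 487 to 732 CPM in sub-clusters 0 to 3, below in every mouse. Aspa, which breaks down N-acetylaspartate, differed by -3.31 ± 1.69, Ermn, a cytoskeletal protein of late myelination, by -3.11 ± 1.04 and Mal by -2.39 ± 1.29, each below in 12 of 12 mice. Of 20 myelin genes, 0 were more than 1 higher and 8 more than 1 lower than in sub-clusters 0 to 3 (6 with UMIs pooled), and 9 were higher and 2 lower than in OPC (11 and 1 with UMIs pooled). Over all genes 2.04% were higher and 11.2% lower than in sub-clusters 0 to 3, and 2.59% and 13.9% than in OPC.

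Against sub-clusters 0 to 3, genes of the mature state were the lowest of the lineage lists. Of 18 genes, 13 were more than 1 lower and 0 higher than in sub-clusters 0 to 3 (12 with UMIs pooled), with a median of -1.69 (-1.35 with UMIs pooled), beside 11.2% lower over all genes (4.00% with UMIs pooled). Anln, which encodes a septin-binding protein, lay between 0 and 224 CPM in sub-cluster 4 and between 391 and 683 CPM in sub-clusters 0 to 3, and Apod, an apolipoprotein of mature oligodendrocytes, between 0 and 201 CPM and between 390 and 807 CPM. The mice of both classes did not overlap for either gene. After thinning to 2000 UMIs, Anln was seen in 7.55% of sub-cluster 4, 42.7% of sub-cluster 3 and 16.3% of OPC nuclei. For Apod these were 13.2%, 31.3% and 14.6%. Hapln2, a link protein of the node of Ranvier, differed by -2.87 ± 1.01, Dock5 by -3.08 ± 1.59, Car2, a carbonic anhydrase, by -2.55 ± 1.83 and Klk6, a protease of mature spinal oligodendrocytes, by -1.72 ± 1.07. Against OPC, 1 of the 18 genes was higher (Nkain2) and 8 were lower, beside 2.59% and 13.9% over all genes. With UMIs pooled these were 2 and 2, beside 3.46% and 5.14%. The summed list took 1.28 ± 0.36% of UMIs in sub-cluster 4 and 1.29 ± 0.15% in sub-cluster 3 (SD, n = 12). Nkain2 held most of this sum in sub-cluster 4.

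The lowest genes of all were mostly outside these lists. Gm32122, a long intergenic non-coding gene, had 17 UMIs in 3 nuclei of sub-cluster 4 and 10552 UMIs in sub-clusters 0 to 3 (-5.36 ± 1.33, or -4.16 with UMIs pooled). Hmcn1, an extracellular matrix fibulin, had 5 UMIs against 5076, Art3, an ADP-ribosyltransferase, 3 against 3144, and Carns1, the carnosine synthase, 5 against 3194. Prr5l was the most abundant in UMIs, with 370 against 74637, and lay between 0 and 1301 CPM over mice against 3612 to 5240 CPM (-4.02, or -2.98 with UMIs pooled). The others of the 15 were Dlc1, Rftn1, A330049N07Rik, Sec14l5, A330015K06Rik, Gm29455, Mboat1, Agmo, Anln and the myosin Myo1e, with differences between -4.57 and -3.46, or between -3.37 and -2.44 with UMIs pooled. In all 15 every mouse of sub-cluster 4 was below its own sub-clusters 0 to 3. The overlapping gene Kcnab1 on the strand opposite A330015K06Rik differed by -2.44 ± 1.73.

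**Figure D2:**
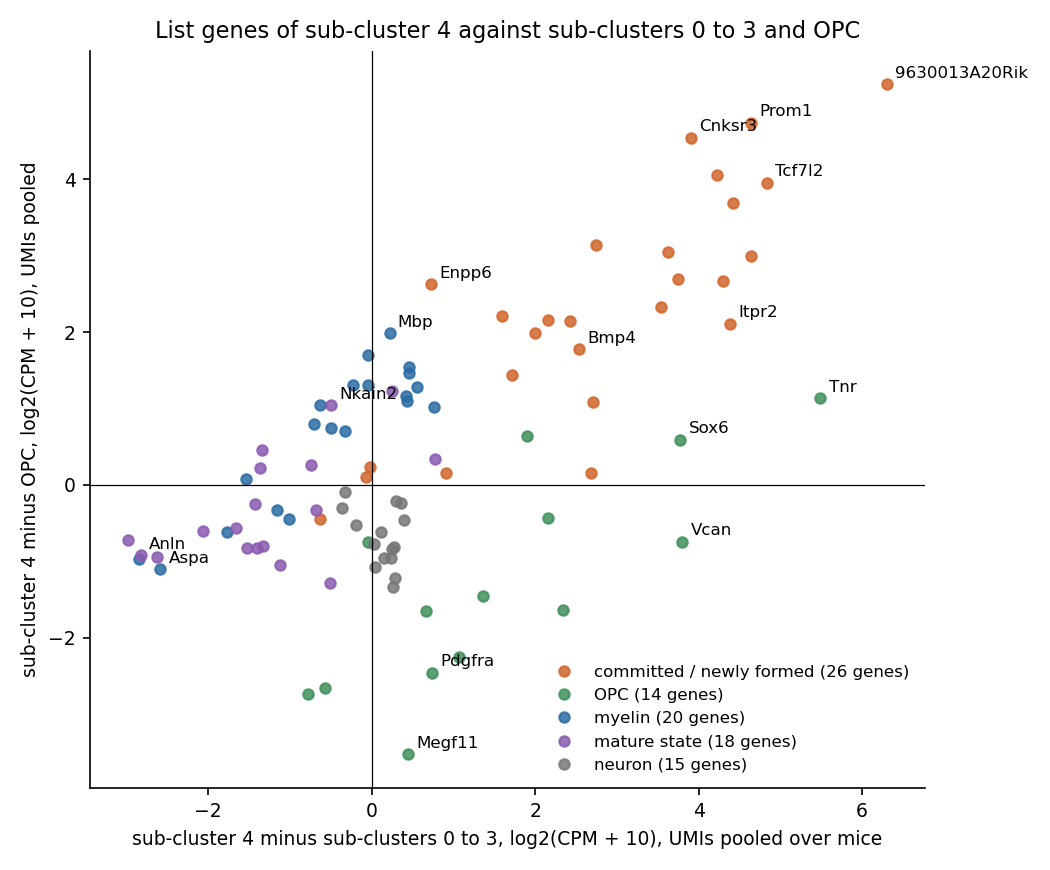
Difference of sub-cluster 4 from sub-clusters 0 to 3 (horizontal) and from OPC (vertical) in log2(CPM + 10) with UMIs pooled over mice, 1 point per gene of 5 lists. Genes of committed and newly formed cells fill the upper right, OPC genes such as Pdgfra and Megf11 the lower part, and myelin and mature-state genes such as Aspa and Anln the left.

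Sox6 was also a gene of sub-cluster 3, where it was seen in 94.7% of nuclei against 66.0% in sub-cluster 4 (53.4% and 58.5% after thinning). Transcription factors of the lineage other than Tcf7l2 and Sox6 differed less from the sum of sub-clusters 0 to 3. Zfp488, a repressor that promotes differentiation, was 1.48 ± 1.34 higher than in sub-clusters 0 to 3, and Sox10, which maintains the lineage, 0.99 ± 0.65. Olig1, Nkx2-2, Myrf, St18 and Zeb2 differed by -0.62, -0.60, 0.04, 0.21 and -0.04. Of 18 such factors, 3 were more than 1 higher and 0 lower, also with UMIs pooled, beside 2.04% and 11.2% over all genes (3.20% and 4.00% with UMIs pooled). Axin2, a feedback inhibitor of WNT signalling, had 5 UMIs and Lef1 0 UMIs in sub-cluster 4, and Id1 and Smad6, targets of BMP signalling, had 0 and 1. Smad7 and Rnf43 of the same list were less sparse, and neither was among the genes more than 1 higher. Of the 9 WNT and BMP genes compared, 2 were more than 1 higher (Tcf7l2 and Bmp4), beside 2.04% over all genes. Bmp4 had entered the comparison only through sub-cluster 4. Lower was 1 gene (Nkd1), a share near the 11.2% over all genes. Genes of cholesterol synthesis, which myelin growth draws on, were mostly near the other oligodendrocytes, with 0 of 14 more than 1 higher and 1 lower (Sc5d, -1.14, or -0.55 with UMIs pooled), near the 2.04% and 11.2% over all genes. The 16 genes of the cell cycle had between 0 and 3 UMIs each in the 53 nuclei, with Mki67 and Top2a at 0.

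Single nuclei carried these levels, not only the sums. The committed and newly formed list took between 1.12% and 10.8% of the UMIs of each of the 53 nuclei. Frmd4a had the most UMIs of the genes on this list, so the share leans on it. Among 2112 nuclei of sub-clusters 0 to 3, 5 reached 1.12%, among 181 OPC nuclei 9 did, and among all 14609 other nuclei of the series 18 did. After each nucleus was thinned to 2000 UMIs, at which 0 of the 53 nuclei were left out, 9630013A20Rik was seen in 96.2% of sub-cluster 4 nuclei, between 1.16% and 6.59% of nuclei in sub-clusters 0 to 3, 15.7% of OPC and 3.39% of neurons (median depth 12864.5 UMIs, against 9023 in sub-cluster 4). Before thinning it was seen in 100% of sub-cluster 4 nuclei and 19.1% of neurons. Tcf7l2 was seen in 84.9% of thinned sub-cluster 4 nuclei, 29.8% of sub-cluster 3, 21.3% of OPC and 1.05% of neurons. Before thinning these were 98.1%, 72.0%, 63.0% and 5.07%. Prr5l was seen in 37.7% of sub-cluster 4 against 97.5% to 100% in sub-clusters 0 to 3. In the deposited clustering of all nuclei, 52 of the 53 belonged to cluster 55, which had 3 other nuclei.

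Within the sub-cluster the OPC list and the myelin list ran in opposite directions. Over the 53 nuclei the OPC list took between 0.14% and 4.01% of UMIs and the myelin list between 0.32% and 2.01%, and their correlation was r = -0.63 (Spearman's rho -0.66), as a description over nuclei that share mice and libraries and whose shares have the same total. The deposited annotation holds, for each nucleus, the best match in a published spinal cord reference, named Oligos for 28 nuclei, microglia for 18, OPC for 4 and neurons for 3. The deposited matching score, a fraction, ran from 0.455 to 0.743 in the 22 nuclei matched to microglia or OPC. It ran from 0.527 to 1 in the 28 matched to Oligos, so many of these labels were not firm. The 22 nuclei matched to microglia or OPC had 1.19% to 4.01% of UMIs on the OPC list, and the 28 matched to Oligos 0.14% to 1.05%, so these did not overlap.

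The match to microglia was set beside microglial genes. In the 22 nuclei matched to microglia or OPC, Ptprc (CD45) had 0 UMIs, Csf1r 1, Cx3cr1 3 and P2ry12 3, in 240710 UMIs in all. Over the whole sub-cluster the list of 9 microglial genes took 0 to 0.0127% of UMIs per mouse, against 0.00542% to 0.0172% in sub-clusters 0 to 3, with Ptprc and Tmem119 at 0 UMIs in sub-cluster 4. In the nuclei deposited as microglia the microglial list took 0.0163% to 0.0460% of UMIs per mouse and the neuron list 1.85% to 2.31%, and Ptprc was seen in 44.4% of them and the neuronal gene Rbfox3 in 90.6%, at a median depth of 46927 UMIs. After thinning to 2000 UMIs these were 10.3% and 28.3%.

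The 22 nuclei and the 28 nuclei matched to Oligos held different parts of the newly formed list, given here as pooled CPM with no test since the match read the same genes. All but 2 of the 34 UMIs of Bmp4 (133 against 6.15 CPM), 38 of the 41 of Neu4 (158 against 9.23 CPM) and 35 of the 45 of Gpr17 (145 against 27.7 CPM) fell in the nuclei matched to microglia or OPC. Those nuclei were also higher in Sox6 (3195 against 308 CPM), Vcan (1167 against 43.1 CPM), Tnr (12326 against 2414 CPM) and Bcas1 (3643 against 1156 CPM). Nuclei matched to Oligos were higher in Prom1, the gene of the membrane protein prominin (907 against 20.8 CPM), Tmem2, a hyaluronidase (861 against 70.6 CPM), Rras2 (858 against 91.4 CPM), 9630013A20Rik (7707 against 2380 CPM), Mobp (1332 against 166 CPM) and Mag (667 against 183 CPM). Tcf7l2 (2768 and 1811 CPM), Frmd4a (16003 and 14694 CPM) and Itpr2 (901 and 1458 CPM) were high in both, and Aspa was low in both (73.8 and 87.2 CPM).

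Neuronal RNA was unevenly spread over the nuclei. Of 15 neuron genes, 0 were more than 1 higher and 2 lower than in sub-clusters 0 to 3 (0 and 0 with UMIs pooled), near the 2.04% and 11.2% over all genes. The neuron list took at most 0.37% of UMIs in 42 nuclei and at least 0.996% in the other 11, with none between, and a limit of 0.5% was set in that gap after it was seen. Those 11 came from 8 mice and had a median of 22218 UMIs against 7772 in the 42. Their share of the committed and newly formed list was 1.12% to 3.88%, and that of the 42 nuclei 1.19% to 10.8%. Only hashtag doublets of different mice had been removed by the authors, doublets of 1 mouse are not marked, and the part of mixed nuclei in the sub-cluster was not tested. Without the 11 nuclei the differences from sub-clusters 0 to 3 were 6.55 for 9630013A20Rik, 4.66 for Tcf7l2, 5.09 for Itpr2 and -4.45 for Anln. With UMIs pooled and these nuclei left out, 23 of 26 newly formed genes were higher and 1 lower. Of 18 mature-state genes, 12 were lower and 1 higher. Over all genes 3.96% were higher and 8.42% lower in that setting. The correlation of the OPC and myelin lists without the 11 nuclei was r = -0.87 (rho -0.89). Of the nuclei in sub-clusters 0, 1, 2 and 3, 8.72%, 2.02%, 41.8% and 22% passed the same limit, and of OPC nuclei 84.0%.

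**Figure D3:**
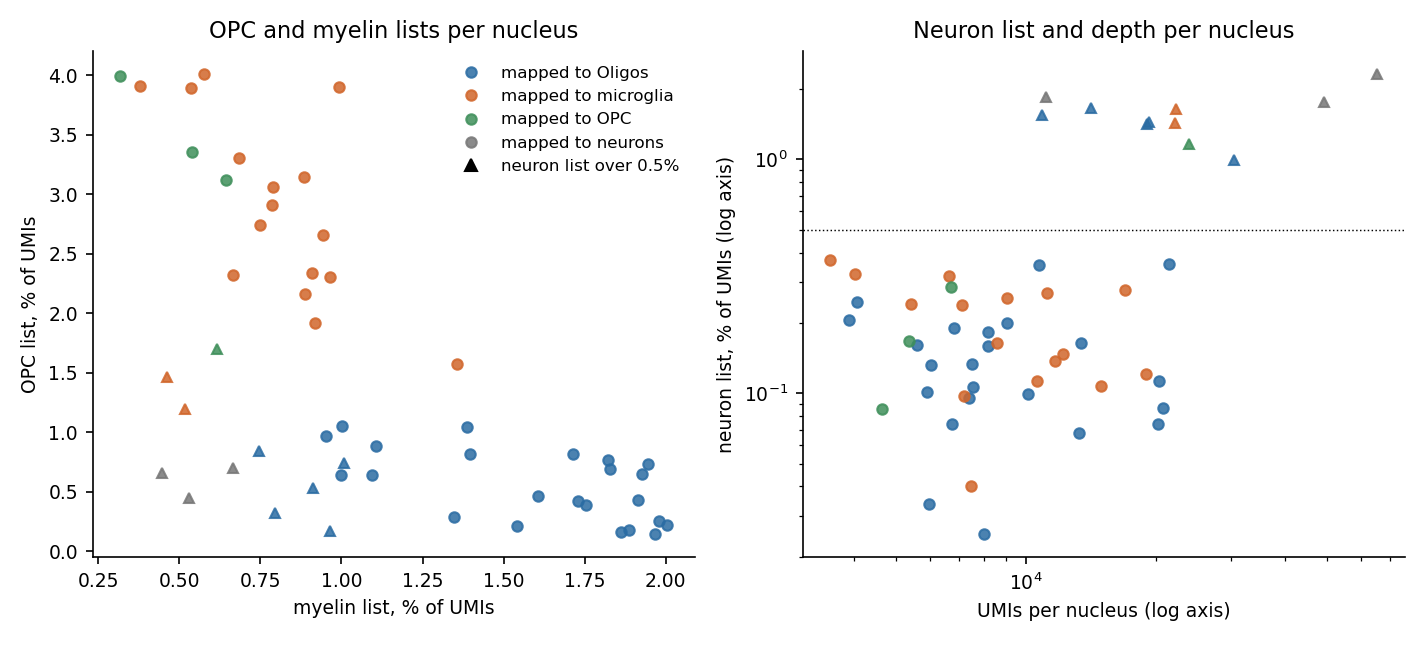
The 53 nuclei of sub-cluster 4, 1 point each, coloured by the deposited reference match. The left panel plots the OPC list against the myelin list in percent of UMIs, and the right panel the neuron list in percent against UMIs per nucleus on log axes, with a dotted line at 0.5%. Nuclei matched to Oligos lie at or below 1.05% of the OPC list, and the 11 nuclei above the line (triangles) hold at least 10873 UMIs.

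The summed profile of sub-cluster 4 was correlated with that of other classes over 9028 genes with log2(CPM + 10). The values were r = 0.912 for OPC, 0.908 for sub-cluster 2, 0.894 for microglia and 0.888 for sub-cluster 3. They were 0.811 for sub-cluster 0, 0.797 for neurons, 0.795 for sub-cluster 1 and 0.768 for astrocytes. These values are across genes, which are not independent replicates, and they move with depth and with RNA that classes share.

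The percent of UMIs from mitochondrial genes was not part of the clustered genes and could be tested. It averaged 0.273 ± 0.202% in sub-cluster 4 and 0.546 ± 0.117% in sub-clusters 0 to 3 (SD over 12 mice). Sub-cluster 4 was lower in 11 of 12 mice, the exception being male WT of pool B at 0.811% against 0.475%, and the mean difference was -0.273 (exact paired permutation test over mice, two-sided, p = 0.00488, with 0.000488 the smallest possible). The percent was skewed over nuclei, with a median of 0.310% and a maximum of 9.54% in sub-cluster 0. A mean of few nuclei then lies below a mean of many more often than above, and mice had 1 to 10 nuclei of sub-cluster 4. The permutation test takes both signs as equally likely, so its p-values for means are not exact here. The part of unequal numbers of nuclei was not tested. Medians of the nuclei in each mouse gave a smaller difference of -0.0790 (exact permutation test, p = 0.0454). Over nuclei the median was 0.160% in sub-cluster 4 and 0.176% in sub-cluster 1, against 0.310%, 0.298% and 0.273% in sub-clusters 0, 2 and 3, and the difference from sub-cluster 1 alone was not tested. Nuclei of sub-cluster 4 were also deeper in all 12 mice, and the part of depth in this difference was not tested. Against OPC the difference was -0.376, lower in 11 of 12 mice (exact permutation test, p = 0.000977). The hashtag margin, which is the deposited gap between the 2 strongest hashtag signals of a nucleus, was looked at after the data were seen and averaged 0.637 ± 0.226 in sub-cluster 4 and 0.547 ± 0.114 in sub-clusters 0 to 3 (higher in 8 of 12 mice, exact paired permutation test, two-sided, p = 0.0649). Against OPC the margin ran the other way (-0.143, lower in 7 of 12 mice, exact permutation test, p = 0.199).

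**Figure D4:**
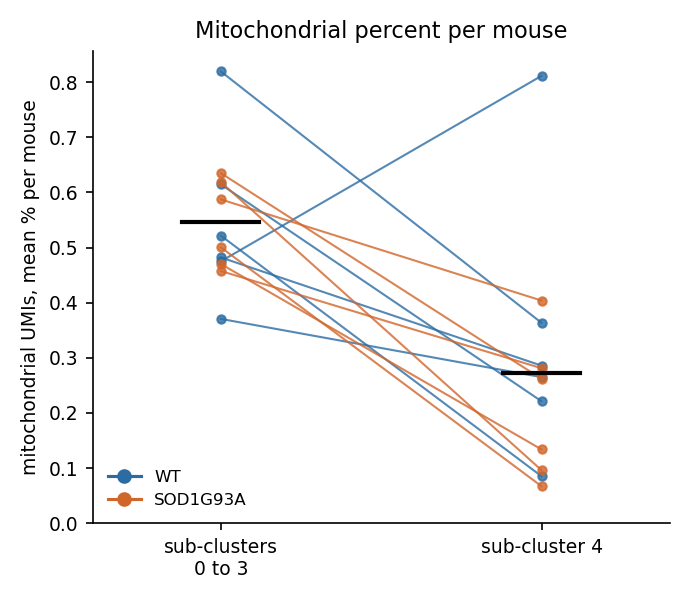
Mean percent of mitochondrial UMIs per mouse in sub-clusters 0 to 3 and in sub-cluster 4, with lines joining the values of 1 mouse (n = 12) and black bars at the means of 0.546% and 0.273%. The line falls in 11 of 12 mice.

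Sub-cluster 4 made up 0.361% of all nuclei (95% Wilson interval 0.276% to 0.472%) and 2.45% of oligodendrocytes (1.88% to 3.19%). Such intervals cover counting error only. Its nuclei came from all 12 mice. In female WT mice the sub-cluster held 4, 3 and 8 nuclei in pools A, B and C, or 0.386%, 0.193% and 0.566% of the nuclei of the mouse. Male WT mice had 2, 10 and 3 nuclei (0.119%, 0.443% and 0.335%). Female SOD1G93A mice had 1, 1 and 2 nuclei (0.182%, 0.117% and 0.315%), and male SOD1G93A mice 7, 8 and 4 (0.493%, 0.568% and 0.420%). As a percent of all nuclei, the 3 male SOD1G93A mice were above the 3 female SOD1G93A mice, and the shares of WT mice of both sexes overlapped. As a percent of oligodendrocytes, female SOD1G93A of pool C (4.55%) was above all male SOD1G93A mice (2.07% to 4.02%).

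By genotype the share was 0.349 ± 0.177% in SOD1G93A mice (23 of 5821 nuclei) and 0.340 ± 0.164% in WT mice (30 of 8841 nuclei, SD, n = 6 each). The fitted log2 fold change had the opposite sign to these means, at -0.08 with a 95% interval from -1.06 to 0.90 (edgeR quasi-likelihood test over 14 classes with a term for pool, FDR = 0.853). As a percent of oligodendrocytes the shares were 2.53 ± 1.5% and 2.60 ± 1.42%. By sex, females had 0.293 ± 0.166% and males 0.396 ± 0.156%, with a log2 fold change of -0.54 (interval -1.56 to 0.49, edgeR, FDR = 0.555). As a percent of oligodendrocytes the means ran the other way, at 2.68 ± 1.70% in females and 2.45 ± 1.16% in males. The genotype effect was -0.89 in females and 0.72 in males. The difference of these effects was -1.61 with an interval from -3.64 to 0.42 and did not pass (edgeR, FDR = 0.749), a contrast looked at after the data were seen. Within pools and with all nuclei as denominator, the SOD1G93A mouse was lower than the WT mouse in 3 of 3 female pairs and higher in 3 of 3 male pairs. As a percent of oligodendrocytes this did not hold, since the female mice of pool C were equal at 4.55% and the SOD1G93A male of pool B was lower than the WT male (2.07% against 3.42%).

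**Figure D5:**
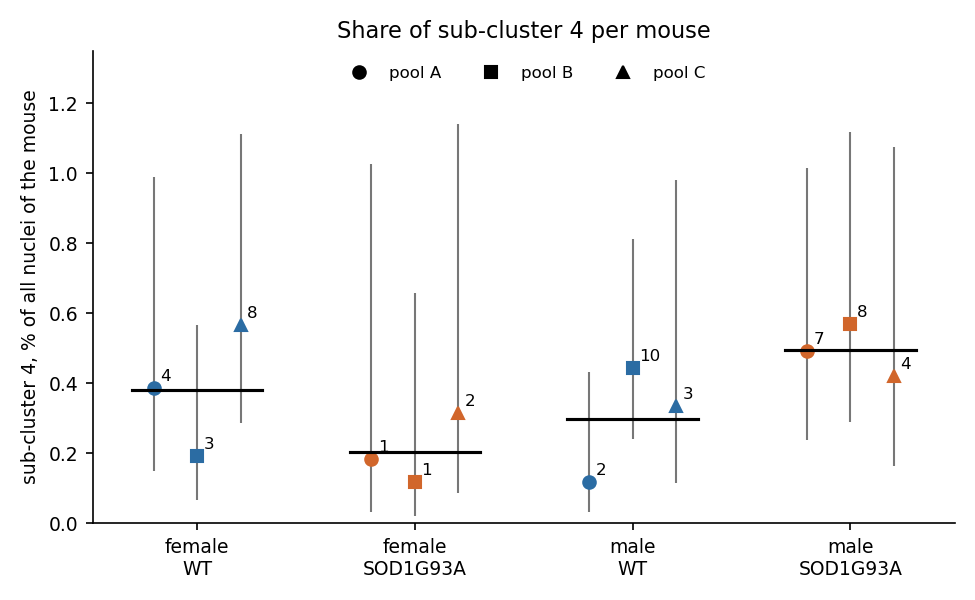
Share of sub-cluster 4 among all nuclei of each mouse in percent, by sex and genotype, with the pool as symbol, the number of nuclei beside each point, 95% Wilson intervals as grey lines and the mean of 3 mice as a black bar. The intervals of all 12 mice overlap, and the means run from 0.205% in female SOD1G93A to 0.494% in male SOD1G93A mice.

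The genes of the sub-cluster were then compared between genotypes. Of 1095 genes that passed the filter, 0 were called at FDR below 0.1 by limma-voom (0% of genes tested), with 53 at an unadjusted p below 0.05. edgeR and DESeq2 also called 0, with 29 and 41 at that level. On simulated counts of the same genes and depths, 26.0% of genes changed by 1 on the log2 scale were called, 72.0% of those changed by 2 and 98.0% of those changed by 3. In that run 50 genes were changed at once at each of 1, 2, 3 and 4. All genes had the same dispersion and pools did not differ. The rates hold for that setting only and may be lower where few genes change.

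The 5 genes of smallest p were all lower in SOD1G93A mice and did not pass. Sytl2, a synaptotagmin-like protein of vesicle transport, was at 149 ± 117 CPM in SOD1G93A and 418 ± 97.7 CPM in WT mice (log2 fold change -1.90, SE 0.49, limma-voom, FDR = 0.921, n = 6 each). Over mice it ran from 0 to 335 CPM and from 254 to 550 CPM, so the groups overlapped. Mobp, a gene of compact myelin, was at 371 ± 223 and 925 ± 507 CPM (-1.78, SE 0.49), and the fold change was -0.94 without female SOD1G93A of pool C. Mobp also moved with the reference match, at 1332 CPM in nuclei matched to Oligos and 166 CPM in those matched to microglia or OPC. Nuclei matched to Oligos were 19 of 30 in WT and 9 of 23 in SOD1G93A mice, and the part of this in the difference was not tested. Of the 19, male WT of pool B gave 7 and female WT of pool C 5. Oxct1, an enzyme of ketone body use, was at 100 ± 54.4 and 295 ± 101 CPM (-1.25, SE 0.38). Gabrb1, a GABA-A receptor subunit (-1.80, SE 0.49), and Synpr, a synaptic vesicle protein (-2.52, SE 0.71), are known from neurons. Their levels ran apart over the WT mice. Female WT of pool A, with 1.49% of UMIs on the neuron list, was highest in Gabrb1 (1284 CPM) and lowest in Synpr (193 CPM). Synpr was highest in male WT of pool C (3238 CPM), with 0.227% on the neuron list. The part of neuronal RNA in either difference was not tested.

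The 2 leading genes overlapped between genotypes. Tcf7l2 lay between 623 and 4488 CPM in WT and between 896 and 4091 CPM in SOD1G93A mice, and 9630013A20Rik between 1772 and 9253 CPM and between 672 and 16245 CPM. Genes tied to oligodendrocytes in disease were sparse. C4b, a complement component, had 2 UMIs in all (1 in each genotype), Pros1, which encodes protein S, 1 UMI and Stat3 38 UMIs. Aldh1l2, a mitochondrial folate enzyme, had 13 UMIs in SOD1G93A and 2 in WT mice and was not tested for low counts. Igf1r, the IGF1 receptor, was at 185 ± 148 and 244 ± 126 CPM (-0.43, SE 0.51, limma-voom, FDR = 0.996). Sod1 had 49 UMIs in SOD1G93A mice and 13 in WT mice. Of the 49, 37 were in male SOD1G93A of pool A, the mouse with the most UMIs (148920). Over mice Sod1 ran from 0 to 248 CPM in SOD1G93A and from 0 to 139 CPM in WT mice. Reads were aligned to the mouse genome, so these are not direct counts of the human transgene. Of the 15 genes of this list, 0 were more than 1 higher in sub-cluster 4 than in sub-clusters 0 to 3 and 7 were lower, or 3 with UMIs pooled, beside 2.04% higher and 11.2% lower over all genes (4.00% lower with UMIs pooled).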

How the data were processed

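Nuclei, sub-clusters, mitochondrial percents, hashtag scores and reference matches (with a fraction as matching score) were those deposited by the authors, who aligned 10x reads to an mm10 pre-mRNA reference with Cell Ranger 3.1 and clustered pool-integrated data in Seurat 4.0.3. Per the authors, nuclei with under 200 genes, over 10% mitochondrial UMIs or the hashtags of several mice were removed. The deposited counts are UMIs without normalization. UMIs were summed per mouse and class. Shares were tested with edgeR 4.0.16 and genes with limma-voom 3.58.1 (filterByExpr, TMMwsp, robust eBayes), both with terms for sex-genotype group and pool, and Benjamini-Hochberg adjustment. The edgeR dispersion settings (no trend, robust, earlier quasi-likelihood method) are not given in the sources used here. Several were tried, and these were kept because their output equalled that of an earlier run on these data, which is no independent reason. Pools are the labelled samples, and the mouse, sex and genotype of each nucleus came from the deposited hashtag assignment. Mice of 1 pool share preparation. After group means were removed, median r over 14 class shares was 0.04 between mice of 1 pool and 0.06 between pools.

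Nuclei, gene lists and comparisons were chosen with earlier results of these data known. Named were the list genes, the 15 highest and 15 lowest genes against sub-clusters 0 to 3 and 10 of each against OPC (at least 20 UMIs and 1 sign in at least 11 of 12 mice), the 5 genes of smallest p and 7 genes the paper names for oligodendrocytes. Coordinates came from GENCODE for 235 of 236 named symbols. Methods were tested on simulated data. Alternatives are given at the end. Within-mouse doublets are not marked. The sex-genotype interaction and the hashtag margin were added after the values were seen. The normalized table was not used, and some listed genes are not reported here.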

Additional observations from a re-analysis of the deposited data

Results flagged for a closer look

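Values were looked at in 38 sets of 6 mice of 1 genotype, and a gap between the most extreme mouse and its neighbour passed Dixon's 95% limit in 5 of them. Chance flags about 1 set in 20, a rate that does not apply to the 2 sets of C4b, where a single UMI in a genotype passes by construction. The myelin list took 1.93% of the sub-cluster 4 UMIs of female SOD1G93A of pool B, a mouse with 1 nucleus, against 0.535% to 0.966% in the other 5 SOD1G93A mice. Synpr stood at 3238 CPM in male WT of pool C, against 193 to 1188 CPM in the other WT mice. Oxct1 was at 0 CPM in female SOD1G93A of pool B, against 101 to 160 CPM in the others of that genotype. C4b had its single UMI of each genotype in male WT of pool B (8.10 CPM) and in male SOD1G93A of pool A (6.72 CPM), with 0 in the other 10 mice.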

How the results depend on the processing

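The mitochondrial difference kept its direction and passed under all 16 alternatives, from -0.376 to -0.0790. The -0.376 end is the comparison with OPC, another reference class, and -0.0790 came from medians of the nuclei. Without 1 mouse at a time the difference lay between -0.328 and -0.250. The limit from unequal numbers of nuclei holds for the means here too. The genotype share passed under none of 19 alternatives, and its direction was not fixed, with 11 values below 0 and 8 above, from -0.31 to 0.29 (adjusted p 0.700 to 0.969), a range that the fits without 1 mouse alone spanned. Values were -0.21 with oligodendrocytes as denominator, 0.12 with TMM factors and 0.14 in the exact permutation test within strata (p = 0.813). With edgeR's default settings, an alternative added after seeing the data, the shares were -0.08 by genotype (FDR 0.865) and -0.53 by sex (FDR 0.568). The sex share was below 0 in all 19, from -0.74 to -0.09 (without 1 mouse, from -0.73 to -0.21), and passed in none. Without the pool as a replicate block the shares were -0.10 by genotype and -0.49 by sex, the count of called genes was 0, and no call changed.

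The genotype comparison of genes called 0 genes in all but 1 of 18 alternatives (0 without each mouse). With no filter on low counts it called 1 of 15080 genes, Synpr, at a log2 fold change of -2.75. A fit of mice with at least 3 nuclei was not run, since no female SOD1G93A mouse had as many. Counts of genes more than 1 apart from sub-clusters 0 to 3 depended on the scale. A pseudocount of 50 CPM gave 191 higher and 362 lower, pooled UMIs 471 and 589, and thinning to 2000 UMIs 197 and 5007. Against sub-clusters 0, 1, 2 and 3 alone, 485, 568, 275 and 449 genes were higher. Of the 301 higher genes, 287, 282, 242 and 253 remained against these sub-clusters in the same order. Of the 1649 lower genes, 1284, 1321, 1120 and 752 remained. Without the 11 nuclei of high neuron list, an alternative added after seeing the data, 3389 were lower. Without 1 mouse, counts ran from 289 to 332 higher and from 1315 to 1919 lower. Of the 301 higher genes, 292 remained with pooled UMIs, 190 with a pseudocount of 50 CPM, 173 after thinning and 260 without the 11 nuclei. Of the 1649 lower genes, 587, 362, 1582 and 1591 remained in these settings. No single gene of the 30 highest and lowest changed sign under any alternative run. Depth limits most values, since 53 nuclei held 691815 UMIs and 4 mice had 1 or 2 nuclei.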

Other observations

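Gene lists of other cell types were summed per mouse in sub-cluster 4. Astrocyte genes took 0.019% to 0.216% of UMIs per mouse, against 0.0453% to 0.151% in sub-clusters 0 to 3, 0.448% to 1.02% in sub-cluster 3 alone and 1.21% to 1.65% in astrocytes. Over nuclei the median was 0.0266%, but 4 nuclei held 0.330%, 0.361%, 0.548% and 0.659%, and the part of mixed nuclei was not tested. Of 6 endothelial and mural genes, Cldn5 and Pdgfrb had 0 UMIs and none had more than 2. Dcn, Col3a1 and Col1a2 of fibroblasts and Prx of Schwann cells had 0 UMIs, Pmp22 had 6, and of the ependymal genes Dnah12 and Enkur had 0 and Cfap44 6. Of the motor neuron genes, Chat had 0 UMIs, Prph 3 and Slit3 61, at a level of 106 ± 76.8 CPM against 40.9 CPM in sub-clusters 0 to 3.

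Thinned to 2000 UMIs, nuclei of sub-cluster 4 had a median of 1040 genes, against 1098 to 1183 in sub-clusters 0 to 3 and 1170.5 in OPC. The 15 highest genes had a median annotated length of 197 kb and the 15 lowest of 113 kb, against 28.0 kb over all genes compared, and the part of gene length was not tested.

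The nuclei matched to Oligos in the deposited reference match numbered 19 of 30 in WT and 9 of 23 in SOD1G93A mice, and those matched to microglia or OPC 10 and 12. In pools A, B and C the nuclei matched to Oligos numbered 1, 3 and 5 in female WT and 1, 7 and 2 in male WT mice. They numbered 0, 1 and 0 in female SOD1G93A and 3, 3 and 2 in male SOD1G93A mice. This split was seen after the data were examined and was not tested over mice.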
